A study of Mus musculus with 2 samples.

Results

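Cytosolic ribosomal protein genes were read in single heart muscle cells of the mouse. They were chosen by symbol. A member is a protein-coding gene whose symbol starts with Rpl or Rps and a number, or is Rplp0, Rplp1, Rplp2 or Rpsa, with the Rps6k kinases left out. The rule gave 92 symbols, and 90 of them had a row in at least 1 of the count tables. There were 87 members among 24522 gene rows in the multichamber table and 89 among 22679 in the live and fixed table. Rpl13 and Rpl10l are not analysed here. The rule also takes in Rps19bp1, which encodes a binding partner of Rps19 and no ribosome subunit, and 6 genes with a -ps ending that the annotation types as protein coding. The rule uses no measured value.

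All cells came from adult wild-type C57BL/6 hearts, dissociated by enzyme perfusion and sorted by LP-FACS, fluorescence sorting built for large particles. The multichamber cells, from mice about 3 months old, carry the label of an atrium, left (LA) or right (RA), or of a ventricle, left (LV) or right (RV), and 1 of 4 library letters, A to D. None of these were fixed. The other study holds ventricular cells taken live or after fixation, where fixation means 800 µL of 100% ethanol dropped into 200 µL of cell suspension. Neither names an animal or ties a library to one, so each label is 1 pool of cells, no p-value is given, and the spread between animals is unknown. A cell was kept if it had 1000 or more gene UMIs and 500 or more genes, which left 56 LA, 44 RA, 91 LV, 90 RV, 31 live and 35 fixed cells. A UMI is a molecular tag that marks 1 captured RNA molecule. The median UMI count per cell ranged from 4436.5 in RA to 77150 in fixed cells. Cell barcodes recur by design, with 80 of them used in all 4 libraries, and no library and barcode pair was repeated. All 8 cardiomyocyte markers searched were present in each pool, at 6.42% to 8.59% of nuclear-encoded UMIs in the chambers, 4.29% in live and 3.44% in fixed cells. The pools are not uniform. The median cell had 6.96% to 7.91% in the chambers, but 6 LA, 2 LV cells and 1 RV cell had under 2%, and no RA, live or fixed cell did. Of these 6 LA cells, 4 held 24.1% to 60.0% red cell transcripts and the other 2 over 1% mesothelial ones. Several results are also given without the cells under 2%, and values given with them alone may depend on them. Red cell transcripts made 4.99% of the RA pool, 2.68% in LA, 1.21% in LV and 1.30% in RV, against 0.0525% in live cells and 0.00202% in fixed cells. The median cell had 11.3% in RA, 1.81% in LA, 0.815% in LV and 0.669% in RV, and 34 of the 44 RA cells had over 2%.

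The cytosolic ribosome has a large subunit, built on proteins named Rpl, and a small subunit, built on proteins named Rps. Vertebrate ribosomal protein mRNAs typically start with a C followed by a run of pyrimidines, the 5′ terminal oligopyrimidine (TOP) motif, through which mTOR and Larp1 control their translation as a group. Skeletal and heart muscle also make Rpl3l, a muscle paralogue that can take the place of Rpl3 near the peptidyl transferase centre. The genes are also known for many processed pseudogenes, copies of their mRNAs inserted elsewhere in the genome, which makes short reads from them hard to place.

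The start site carries the feature by which these genes are translated together, so the 15 bases on either side of the annotated start are shown for 10 members. RefSeq promoter windows (build GRCm38.p6) were found for 66 of the 92 symbols. They cover 250 bases before and 50 after the start. Capitals mark an unbroken run of C and T that begins with C, covers the start and has at least 5 bases. The first 6 have such a run, and the last 4 (Rps2, Rplp0, Rps4x and Rpl3l) have none in this window.
Rps18, chr17:33955651-33955680, minus strand: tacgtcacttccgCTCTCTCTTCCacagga
Rps10, chr17:27635230-27635259, minus strand: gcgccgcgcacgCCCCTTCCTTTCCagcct
Rpl28, chr7:4792950-4792979, plus strand: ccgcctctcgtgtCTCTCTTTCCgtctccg
Rplp2, chr7:141447636-141447665, plus strand: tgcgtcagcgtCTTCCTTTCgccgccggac
Rpl38, chr11:114668565-114668594, plus strand: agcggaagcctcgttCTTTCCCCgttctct
Rpl7a, chr2:26910792-26910821, plus strand: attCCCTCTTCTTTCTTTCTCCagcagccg
Rps2, chr17:24720048-24720077, plus strand: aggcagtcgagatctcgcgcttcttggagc
Rplp0, chr5:115559452-115559481, plus strand: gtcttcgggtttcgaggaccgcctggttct
Rps4x, chrX:102189377-102189406, minus strand: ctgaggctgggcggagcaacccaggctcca
Rpl3l, chr17:24727811-24727840, plus strand: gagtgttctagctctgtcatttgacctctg

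Counting 1 window per gene, 19 of 66 members (28.8%) had a run of at least 5, against 7.92% of all 27025 genes in the table. Runs of at least 8 were found in 22.7% of members and 3.19% of all genes. The letters CTTTCC on the gene strand occurred anywhere in the 300 bases in 36.4% of members against 14.0% of all genes. GGAAG on either strand, the core of ETS factor sites, occurred in 92.4% against 71.1%. The YY1-type letters CCATNTTG on either strand stood in 16.7% against 5.25%, and GGGCGG, the core of Sp1 sites, in 60.6% against 35.9%. TATAAA on the gene strand (9.09% against 8.88%) and CCAAT on either strand (30.3% against 37.9%) were not more frequent in members. CTTTCC lies within many of the pyrimidine runs, so those counts overlap. A match describes letters and not a site in use, and an annotated start can lie some bases from the one used in heart.

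Ribosomal protein mRNAs took up 3.05% of nuclear-encoded UMIs in LA cells (28511 UMIs, 95% interval 3.02% to 3.09%) and 2.83% in RA cells. The ventricular values were 2.86% for LV and 2.78% for RV. The share was 1.21% in live cells (17989 UMIs, 1.19% to 1.23%) and 0.965% in fixed cells (23403 UMIs, 0.953% to 0.978%). Intervals are exact Clopper-Pearson intervals and cover counting error only. The intervals of RA and LV overlapped, LA was the highest pool (2.96%, 2.93% to 3.00%, without cells under 2% cardiomyocyte markers), and both pools of the other study were lower than all 4 chambers. The tables differ in how many UMIs lie on pseudogene rows of these genes, as described further on, so the gap between the studies is given as values only. Large subunit genes gave 1.21 to 1.31 UMIs for each small subunit UMI in the 6 pools. The 10 most abundant members took 25.2% to 28.2% of the ribosomal protein UMIs.

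The method tags the 3′ end, so counts were not divided by transcript length. Levels below are CPM, UMIs per 1000000 nuclear-encoded UMIs. Rps2, a small subunit protein near the mRNA entry site, was the most abundant member in LA, LV and RV and second in RA, with 1197 CPM in LA and 991 in RA, against 1268 in LV and 1177 in RV. In live cells it had 367 CPM and in fixed cells 295. Next came the stalk of the large subunit, which recruits translation factors. Its base, Rplp0, stood at 1129.9 and 1106 CPM in LA and RA, 815 and 919 in LV and RV, and 359.9 and 212 in live and fixed cells. The stalk protein Rplp1 stood at 989, 923, 891, 894, 381 and 240.4 CPM in the same order, and Rplp2 at 688, 547, 644, 670.2, 311 and 224. All 3 stalk genes were thus among the 10 most abundant members of each pool but RA, where Rplp2 was not and Rplp0 led.

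The 10 members with most UMIs in LV and RV together also included Rpl41, Rps14, Rpsa, Rps9 and Rpl36, between 540.1 CPM (Rpl36 in LV) and 710.4 (Rpl41 in RV). Rpl41, the smallest protein of the ribosome, was the most abundant member in live cells at 468 CPM and had 277 in fixed cells. Rpsa, the small subunit protein also known as the laminin receptor, had 798 and 828 CPM in the left and right atrial pools and 648 and 623 in the ventricular ones. It had 208 CPM in live and 143 in fixed cells. At the low end, Rpl39l, a paralogue known from testis, had 4 UMIs in LA, 1 in RV and none in RA or LV, where the limit that 3 counts allow is 6.38 and 1.17 CPM. Rpl9-ps1, Rpl36-ps4 and Rps12-ps3, with rows in the live and fixed table alone, reached at most 2.02 CPM. Rpl23a, a large subunit protein at the exit of the nascent chain tunnel, was listed at only 6.43 and 14.9 CPM in LA and RA, 17.9 and 15.7 in LV and RV, and 4.72 and 1.24 in live and fixed cells.

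**Figure D1:**
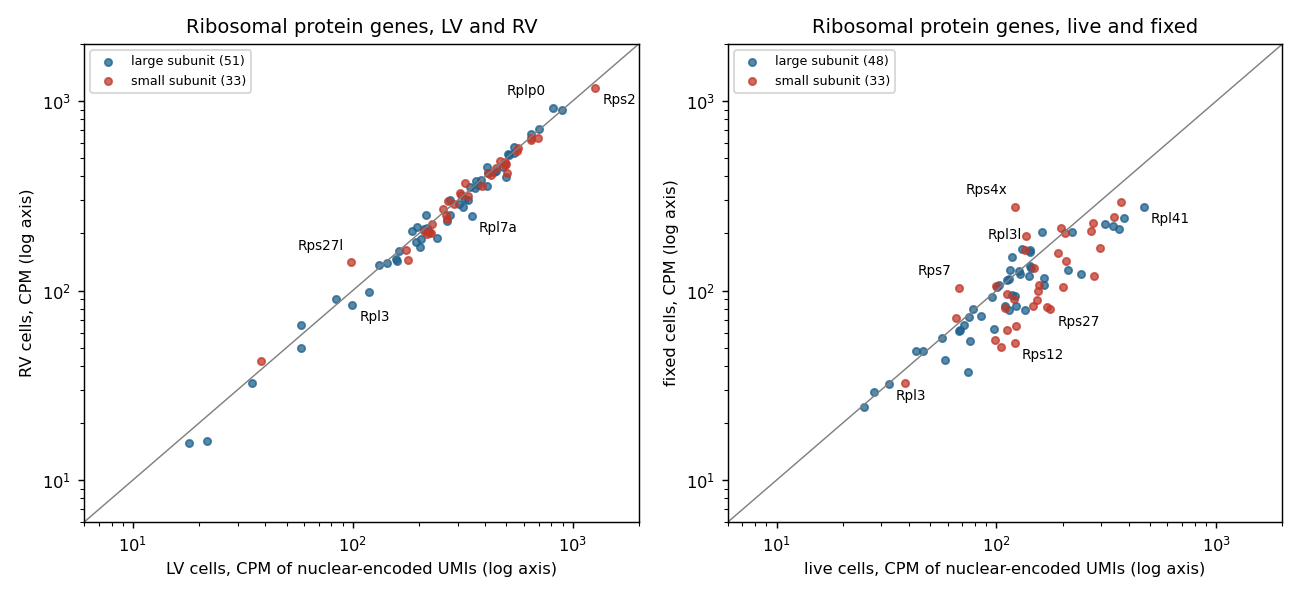
Level of each ribosomal protein gene with at least 30 UMIs in both pools, in CPM on log axes, for LV against RV (left) and live against fixed cells (right); blue points are large and red points small subunit genes, and the grey line marks equal levels. The LV and RV points lie close to the line, while the live and fixed points scatter, with Rps4x above it and Rps12 and Rps27 below.

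Across members with at least 30 UMIs in both pools, log2 levels in LV and RV had a Pearson correlation of 0.991 (84 genes), those in LA and RA 0.931 (78 genes), and those in live and fixed cells 0.852 (81 genes). These are correlations across genes, which are not independent replicates, and pools from 1 table share gene-specific capture. The SD of the log2 difference between the pools was 0.15 in LV against RV.

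In single cells the median ribosomal protein share was 2.68% and 2.25% for LA and RA, 2.81% and 2.80% for LV and RV, and 1.29% and 0.966% for live and fixed cells. The lowest and highest cells had 0.299% and 4.58% in LA and 0.824% and 3.61% in RA. For the ventricles they had 0.572% and 4.64% (LV) and 0.893% and 3.84% (RV). The highest LV cell had 0.838% cardiomyocyte markers, the highest LA cell 0.722% and the lowest LA cell 1.66%, with 24.1% red cell transcripts. Without cells under 2% of these markers the LV range ended at 4.38%, and LA cells lay between 0.869% and 4.51%. Live cells lay between 0.763% and 2.17%, and fixed cells between 0.333% and 2.11%. Cells of all 4 chambers overlapped over most of their range, and live and fixed cells overlapped as well. Among cells with at least 5000 UMIs the coefficient of variation of the share was 23.5% over 89 LV cells, where counting alone gives 4.41%, and 21.4% over 87 RV cells. It was 33.1% in LA (36 cells; 27.3% over the 32 with at least 2% cardiomyocyte markers), 29.6% in RA (18 cells), 29.9% in live (31 cells) and 37.4% in fixed cells (34 cells).

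**Figure D2:**
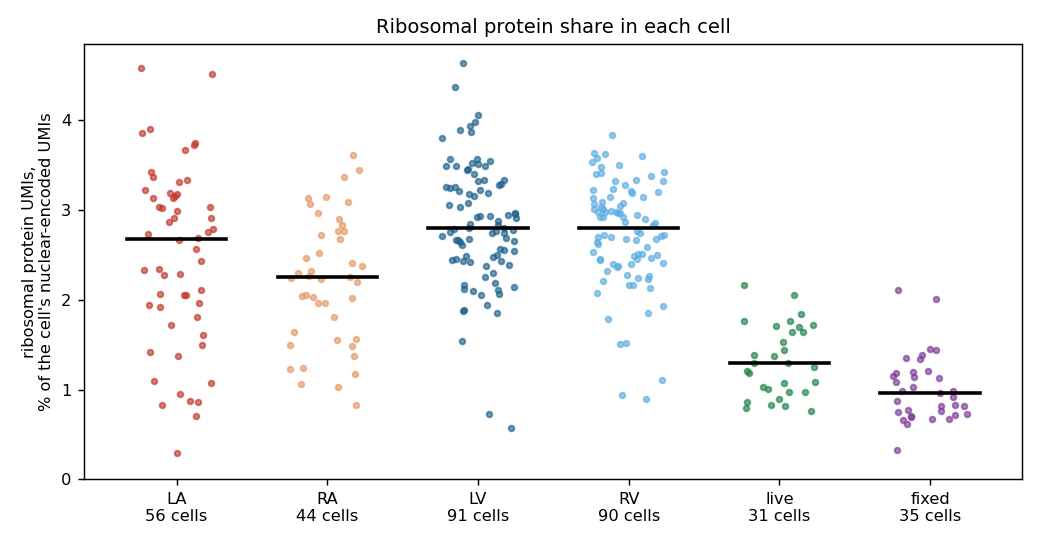
Ribosomal protein UMIs as a percent of nuclear-encoded UMIs, 1 point per cell, with the black bar at the median of the cells of each label. The 4 chambers have medians from 2.25% to 2.81%, above those of live (1.29%) and fixed cells (0.966%), and some cells of each chamber lie under 1%.

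Cells with a high large subunit share also had a high small subunit share. Pearson's r between the 2 shares was 0.754 over 91 LV cells, 0.807 over 90 RV cells, 0.905 over 56 LA cells, 0.575 over 44 RA cells (0.862 over the 18 with at least 5000 UMIs), 0.736 over 31 live cells and 0.940 over 35 fixed cells. Both shares have the same total as denominator. In the ventricles the share hardly varied with depth: LV cells split by depth into 3 equal classes had 2.94%, 2.87% and 2.84%, from shallowest to deepest. In LA the same classes had 1.97%, 2.55% and 3.26%, and in RA 2.10%, 1.92% and 2.98%. The share in LA and RA cells was lower in cells with more red cell and other non-myocyte transcripts, with r of -0.645 over 56 and -0.777 over 44 cells. Those transcripts are part of the share's denominator. LA cells with up to 2% red cell transcripts had 3.26% ribosomal protein UMIs and those above it 2.52%, and RA cells had 3.05% and 2.42%. In LV the order was opposite, with 2.80% and 3.08%. Across the 31 live cells the share went with a lower mitochondrial percent (r = -0.726), while across fixed cells r was 0.245. The part of these transcripts, of depth and of RNA quality in the results was not tested.

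With each cell thinned to 5000 UMIs, the median cell held 46 detected members in LV (89 cells), 45 in RV (87), 45.5 in LA (36) and 42.5 in RA (18), against 29 in live (31) and 27 in fixed cells (34). Shallower cells were left out, namely 20 LA, 26 RA, 2 LV, 3 RV cells and 1 fixed cell. Unthinned medians were 79, 79, 64, 31, 62 and 76 in the order LV, RV, LA, RA, live and fixed.

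Left and right ventricular cells had nearly the same ribosomal protein profile. Of 85 members with at least 30 UMIs, none differed by 1.5-fold or more between the pools. Of all 10812 genes measured, 11.4% were at least 1.5-fold higher in LV and 7.18% at least 1.5-fold lower. Among the 2665 more abundant other genes, by mean CPM of the 2 pools, 2.59% were higher and 1.16% lower in LV. Genes counted as 1.5-fold apart are read on the scale log2 (CPM + 5), which understates differences of low genes. The members' median log2 ratio was 0.049, beside 0.034 for all genes, and 54 of 85 members lay above 0, as did 53.7% of all genes. The summed share in LV was 1.03 times that in RV (1.02 to 1.04), and within libraries A to D the ratio was 1.10, 1.07, 0.945 and 1.04, so library C had the opposite order. With median-of-ratios scaling the members' median was -0.00014.

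Rps27l and Rpl7a lay farthest apart between the ventricles. Rpl7a, a large subunit protein, stood at 347 CPM in LV and 248 in RV, 1.40-fold apart (1.27 to 1.55). The log2 ratio was above 0 in every library, at 0.49, 0.33, 0.34 and 0.68 in A to D. Its level was 257 and 264 CPM in the atria (LA, RA) and 135 and 79.2 in live and fixed cells. Rps27l, a paralogue of Rps27 that p53 is known to induce, was lower in LV than in RV, at 98.2 against 141 CPM (ratio 0.697, 0.594 to 0.817). Its log2 ratio was below 0 in every library, at -0.72, -0.02, -0.22 and -1.06, and without library D it was -0.32. Rpl18 had 241 CPM in LV and 190.1 in RV, a ratio of 1.27 (1.13 to 1.43), with higher levels in LV in all 4 libraries. Next highest among members with at least 100 UMIs were Rpl22l1 (1.36), Rpl17 (1.25) and Rps6 (1.23), and next lowest Rpl35a (0.865), Rps19 (0.876), Rplp0 (0.887, 0.837 to 0.939) and Rpl36al (0.887). In all, 11 of 85 members were above 0 in all 4 libraries, where 6.42% of all genes were, and 2 (Rpl34 and Rps27l) were below 0 in all 4, where 5.11% were.

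Atrial and ventricular pools also differed little. Of 85 members none was at least 1.5-fold higher in atrial cells, against 12.6% of 11682 genes, and 1, Rpl23a, was lower, against 15.1%. Among the 2664 more abundant other genes 7.51% were higher and 5.03% lower. Below 0 on the log2 scale were 31 of 85 members and 55.4% of all genes. The median log2 ratio was 0.064, beside -0.063 for all genes, and the summed share in atrial cells was 1.06 times that in ventricular cells (1.04 to 1.07). Library D went the other way, with 2.31% in 13 atrial cells against 2.75% in 46 ventricular cells, while the ratios in A, B and C were 1.01, 1.14 and 1.05. With equal weight per cell the median was -0.27 and 16 members were lower, where the median of all genes was -0.20 and 25.8% were lower. With the top cell of each gene left out the members' median was -0.080 and that of all genes -0.26. With the mean of the 4 within-library log2 ratios it was -0.059 against -0.25, with 2 members lower. The members' median was thus below 0 under these 3 settings, and above that of all genes in all but the one with equal weight per cell. Red cell transcripts made 3.45% of atrial and 1.26% of ventricular UMIs, and mesothelial transcripts 0.125% and 0.00648%. The members' median was 0.19 without cells over 2% non-myocyte transcripts (all genes -0.033), which left 30 LA and 9 RA cells. It was 0.0089 without cells over 0.5% mesothelial transcripts (all genes -0.14) and 0.023 without cells under 2% cardiomyocyte markers (all genes -0.097).

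The members with the highest atrial ratios were Rpl3 (1.49, interval 1.25 to 1.76), the large subunit protein Rpl15 (1.46, 1.24 to 1.70), Rps19 (1.39, 1.27 to 1.52), the small subunit gene mutated most often in Diamond-Blackfan anaemia, Rpl36al (1.37, 1.10 to 1.69) and Rps27a (1.36, 1.23 to 1.50), which is made as a fusion with ubiquitin. Rps19 had 557 CPM in LA and 340.4 in RA, beside 323.5 for LV and 369 for RV, so RA lay between the ventricles. Rps27a had 400.5, 362, 271 and 298 CPM in that order, with both atria above both ventricles. Without cells under 2% cardiomyocyte markers the atrial ratios of Rps19 and Rps27a were 1.17 (1.06 to 1.30) and 1.20 (1.07 to 1.33). Those of Rpl3, Rpl15 and Rpl36al were then 1.45 (1.20 to 1.76), 1.41 (1.19 to 1.67) and 1.26 (0.998 to 1.58). Rplp0 had a ratio of 1.29 (1.22 to 1.36), with log2 ratios of 0.26, 0.48, 0.40 and 0.27 in A to D. For Rplp0 both atrial pools were likewise above both ventricular pools. The lowest ratios among members with at least 100 UMIs were those of Rpl23a (0.553, 0.284 to 0.993), Rpl9-ps6 (0.757), Rps27l (0.823), Rps20 (0.834) and Rps29 (0.844). Without cells under 2% cardiomyocyte markers Rpl23a had 0.633 (0.324 to 1.14), Rpl9-ps6 0.760 (0.551 to 1.03) and Rps27l 0.836 (0.685 to 1.01). Rps20 then had 0.768 (0.655 to 0.896) and Rps29 0.836 (0.763 to 0.915). Of 85 members, 6 (Rpl3, Rpl36a, Rpl8, Rplp0, Rps24 and Rps27a) were above 0 in all 4 libraries, where 2.63% of all genes were, and 7 (Rpl12, Rpl36, Rpl9-ps6, Rps10, Rps20, Rps21 and Rps29) were below 0 in all 4, where 14.7% were. For Rpl3 the log2 ratio of 0.55 became -0.15 with equal weight per cell.

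In the atria, 8 of 83 members were at least 1.5-fold higher in LA than in RA, where 28.5% of 5715 genes were. At least 1.5-fold lower was 1 member, where 15.5% of genes were. Among the 2706 more abundant other genes 16.7% were higher and 17.3% lower. The median log2 ratio was 0.14, beside 0.10 for all genes, and the summed share in LA was 1.08 times that in RA (1.06 to 1.10), with 1.03, 1.15, 1.24 and 1.46 in libraries A to D. The higher members were Rps7, Rps27, Rpl13a, Rps19, Rps12, Rpl3, Rpl10-ps3 and Rpl7l1. The lower one was Rpl22l1, a paralogue of Rpl22, with 18 UMIs in each pool. Without cells under 2% cardiomyocyte markers Rps7, Rps27 and Rps19 fell short of 1.5-fold, at log2 ratios of 0.47, 0.50 and 0.33. The other 5 higher members stayed past it. Rps12, a small subunit protein, had 336 CPM in LA and 164 in RA, a ratio of 2.05 (1.60 to 2.67). Libraries were split for Rps12, with log2 ratios of -0.11, 1.82, 2.15 and -0.30 in A to D. Rpl3 had 168 CPM in LA and 70.2 in RA (ratio 2.40, 1.64 to 3.60), and its log2 ratio was above 0 in each library, at 2.39, 0.16, 1.03 and 1.56. The lowest LA to RA ratios among members with at least 100 UMIs were those of Rps6 (0.691, 0.538 to 0.888), a target of the S6 kinases, Rpl24 (0.732), Rpl28 (0.752), Rpl3l (0.812) and Rps3 (0.826). Without each library in turn the log2 ratio of Rpl24 ranged from -0.59 to 0.79, so its direction turns on 1 library. The log2 ratios of Rps6, Rpl28, Rpl3l and Rps3 stayed negative. Without cells under 2% cardiomyocyte markers, however, Rpl3l had 342.5 CPM in LA and 346.7 in RA, a ratio of 0.988 (0.809 to 1.21). The ratios of Rps6, Rpl28 and Rps3 were then 0.652, 0.752 and 0.850. LA was above RA in all 4 libraries for 8 of 83 members, where it was for 6.33% of all genes, and below it in all 4 for 3 (Rpl3l, Rps18 and Rps6), where it was for 3.81%. Rps18 was nonetheless higher in the LA pool (351 of 933747 nuclear-encoded UMIs) than in the RA pool (160 of 470095). The pools draw on the libraries unequally. Libraries A and B gave 325958 and 439440 of the LA UMIs, and C gave 313967 of the RA UMIs. Pooled LA to RA ratios thus also set libraries against each other.

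The RA pool was shallow, and single cells weighed on it: 1 cell gave 25.3% of the Rps2 UMIs of RA and 37.0% of its Rpsa UMIs, against 3.18% and 3.17% for the top cell in RV. In LA, 2 cells with over 0.5% mesothelial transcripts gave 20.6% of the ribosomal protein UMIs, at a share of 3.74%. The mesothelial list was at 0.178% of UMIs in LA and 0.0189% in RA, with all 7 of its genes present in LA and 6 in RA. Without such cells, or without cells under 2% cardiomyocyte markers, 5 members were higher in LA, where 19.4% and 19.6% of all genes were. With the top cell of each gene left out 27 were, where 40.4% of all genes were and the medians of members and of all genes were 0.47 and 0.43. With equal weight per cell 20 were, against 30.0% of all genes, with medians of 0.19 and 0.14. With the mean of the 4 within-library ratios 20 were too, against 35.5%, with medians of 0.34 and 0.25. In each setting the members' share past the fold was below that of all genes. Rpl22l1 turned to a log2 ratio of 1.55 with equal weight and of 0.092 with the within-library mean. The part of these cells in the atrial difference was not tested.

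**Figure D3:**
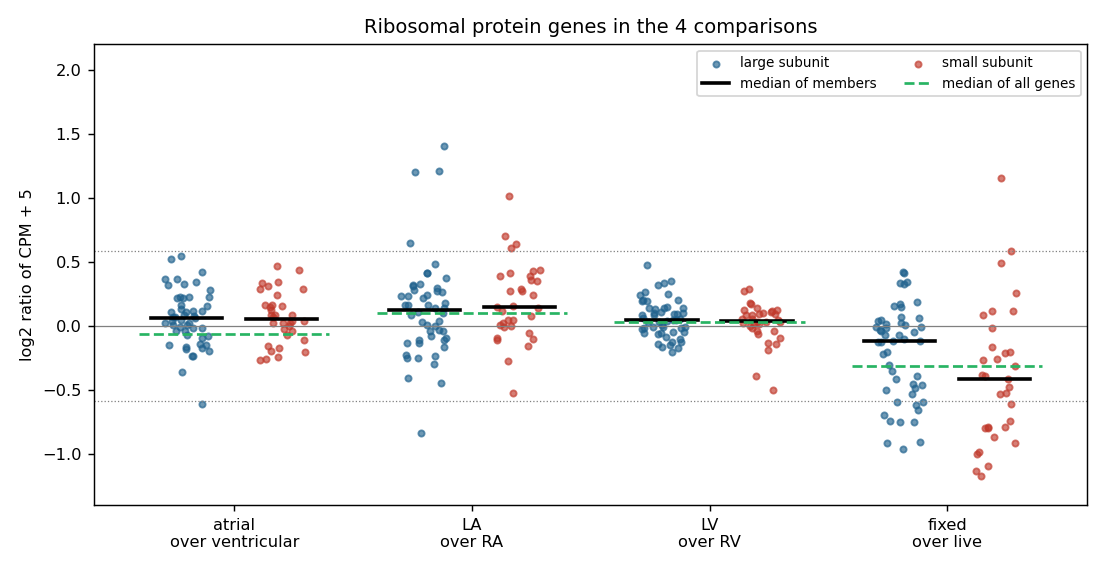
Log2 ratio of CPM + 5 for each ribosomal protein gene with at least 30 UMIs in the 4 comparisons, large subunit in blue and small subunit in red, with black bars at their medians, a green dashed line at the median of all genes and dotted lines at 1.5-fold. Members lie closest together in LV over RV, and only in fixed over live do the medians of the 2 subunits lie apart, at -0.12 and -0.41.

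Ribosomal protein mRNAs were less abundant in ethanol-fixed than in live ventricular cells when read against nuclear-encoded UMIs, as were genes in general. The summed share in live cells was 1.26 times that in fixed cells (1.23 to 1.28). Of 84 members, 24 were at least 1.5-fold lower in fixed cells, where 33.8% of 7860 genes were. At least 1.5-fold higher was 1 member, where 7.54% of genes were. Among the 1709 more abundant other genes 31.3% were lower and 6.09% higher. The members' median log2 ratio was -0.24 and that of all genes -0.31, and 61 of 84 members and 69.2% of all genes lay below 0. Among 1710 protein-coding genes with transcript lengths in the members' range the median was -0.076 and 21.9% were lower.

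The direction of the median depends on the total. Against all UMIs, the mitochondrially encoded ones included, it was -0.0056, with TMM scaling 0.13 and with median-of-ratios scaling 0.16. The median of all genes moved with it, to -0.10, 0.0065 and 0.041. Members lower in fixed cells then numbered 10, 6 and 4, and members higher 3, 9 and 10. Mitochondrial RNA was at a median of 26.1% of UMIs in live and 13.8% in fixed cells. Fixation and the handling of 2 separate pools cannot be told apart.

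The 2 subunits were split. Small subunit genes had a median log2 ratio of -0.41 (13 of 33 lower, 1 higher) and large subunit genes -0.12 (11 of 51 lower, none higher), a difference of -0.30. A change of total or scaling shifts both medians alike and so says little about this difference. Over the 12 other settings that altered it, such as reads, equal weight per cell and other pseudocounts, it lay between -0.38 and -0.22. In the other comparisons the difference was -0.0093 (atrial against ventricular), 0.021 (LA against RA) and -0.0077 (LV against RV). The members also scattered more, with an SD of log2 ratios of 0.45 in fixed against live and 0.15 in LV against RV. Over the 84 members, the fixed to live ratio showed little relation to transcript length (Spearman's rho 0.13), to the level in LV (-0.12) or to the share of UMIs on pseudogene rows in live cells (-0.0099), given across genes as a description.

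Rps4x stood apart. This small subunit gene on the X chromosome (chrX:102184941-102189394, minus strand) had 180 UMIs in 26 of 31 live cells and 668 in 34 of 35 fixed cells, or 121 CPM in live and 276 in fixed cells. The ratio was 2.27 (1.92 to 2.69). The median cell had 101 CPM among live and 283 among fixed cells, the quartiles of live cells lay at 24.7 and 164 and those of fixed cells at 153 and 399, and the highest cells had 928 and 931. Its log2 ratio of 1.15 stayed between 1.05 and 1.57 under all settings tried. In the chambers Rps4x levels lay closer together, at 482 and 432 CPM in the atria (LA, RA) and 424 and 409.6 in the ventricles (LV, RV).

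Rps7, a small subunit protein, had 67.4 CPM in live and 104 in fixed cells, a ratio of 1.54 (1.21 to 1.96) that falls just short of 1.5-fold once 5 CPM are added to both. Rps18 had 137 and 195 CPM (ratio 1.42, 1.21 to 1.69), and with equal weight per cell its log2 ratio of 0.49 became -0.0086. Rpl17 (1.28) and Rpl24 (1.27) were the next highest members with at least 100 UMIs. At the other end, Rps12 had 180 UMIs in 24 of 31 live cells and 128 in 24 of 35 fixed cells, or 121 CPM in live and 52.8 in fixed cells, a ratio of 0.435 (0.344 to 0.549). For Rps12 the quartiles of live cells lay at 50.4 and 172 CPM and those of fixed cells at 0 and 71.7, so the groups overlapped. Rps27 had 175 and 79.6 CPM (ratio 0.454), Rps27rt 169 and 82.1 (0.485) and Rps20 104 and 50.3 (0.482). These low members all belong to the small subunit. Rps27 and Rps27rt have identical coding sequences, so reads from either can be placed on the other and the pair is not made of separate observations. Both also count among the lower small subunit genes above. Among the large subunit genes, Rpl12 (ratio 0.501) and Rplp0 (0.589) were low in fixed cells, as was Rpl41 (0.591).

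Other genes of the translation machinery, from lists chosen as context, are given with the same fold, beside the 7.54% of all genes that were higher and 33.8% that were lower, at a median of -0.31. Of 17 translation factors and other genes with TOP mRNAs, 1 was higher and 3 were lower in fixed cells, with a median of -0.30. Of 70 mitochondrial ribosomal protein genes measured, 14 were higher and 13 lower, with a median of -0.083. Of 13 ribosome biogenesis genes measured, 1 was higher and 7 were lower, with a median of -0.68; the nucleolar proteins Ncl and Npm1 had log2 ratios of -1.29 and -1.30. Of 10 mTOR and TOP regulators measured, 3 were lower, with a median of -0.48, and of 2 snoRNA host genes measured neither passed the fold.

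In LV against RV the same lists had medians of 0.031 (TOP factors), -0.014 (mitochondrial ribosomal proteins), 0.13 (biogenesis), 0.13 (mTOR and TOP regulators) and -0.028 (snoRNA hosts), with at most 3 genes past the fold in either direction. The median of all genes was 0.034 there. In atrial against ventricular cells the medians were 0.099, -0.071, -0.069, -0.15 and 0.14 in that order, beside -0.063 for all genes. Members of the group with a pyrimidine run at the start (21 genes in these comparisons, over all windows of a gene) had a median log2 ratio of -0.35 in fixed against live and those with a window and no such run -0.20 (41 genes). In LV against RV the 2 sets had -0.0010 and 0.060.

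Rpl3l was the more abundant of the Rpl3 pair in all 6 pools. The genes lie apart, Rpl3l on chromosome 17 and Rpl3 on chromosome 15, and their coding sequences match at 73.9% of 1212 aligned bases. The longest run of bases that the transcripts share is 22, so few reads could fit both. The first 90 bases of the coding sequences from GENCODE M21 transcripts are shown because this divergence is what lets the 2 genes be counted apart. Capitals mark the 21 positions at which they differ.
Rpl3l: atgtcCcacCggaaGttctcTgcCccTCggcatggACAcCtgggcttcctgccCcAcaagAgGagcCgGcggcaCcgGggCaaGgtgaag
Rpl3: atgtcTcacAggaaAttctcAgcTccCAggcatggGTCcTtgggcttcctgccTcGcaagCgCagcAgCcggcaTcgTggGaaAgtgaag

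Rpl3l had 282 and 347 CPM in LA and RA, 317 and 277 in LV and RV, and 142 and 159.6 in live and fixed cells. Rpl3 had 168, 70.2, 99.8, 83.7, 32.3 and 32.2 CPM in the same order. Rpl3l therefore made 62.6% of the pair's UMIs in LA (263 of 420 UMIs, 57.8% to 67.3%) and 83.2% in RA (77.2% to 88.1%). Its share was 76.1% for LV (73.4% to 78.6%) and 76.8% for RV (74.2% to 79.3%). It made 81.4% in live cells (76.1% to 86.0%) and 83.2% in fixed cells (79.5% to 86.5%). LA was the lowest pool, with an interval below all others. The intervals of LV, RV, RA and live cells overlapped, while that of fixed cells lay above those of LV and RV. Pseudogene rows named after Rpl3 limit the comparison between the studies. They held 42.9% of the Rpl3 and pseudogene UMIs of live cells and 39.5% of those of fixed cells. The chamber values were lower, at 10.2% (LV), 10.4% (RV), 7.65% (LA) and 23.3% (RA). Rpl3l has none. The shares above leave these rows out, so their gap between the studies is given as values only. Single cells also weighed on the Rpl3l shares. Without cells under 2% cardiomyocyte markers the LA share was 69.5% (64.6% to 74.1%). The LV share was then 79.8% (77.2% to 82.2%), and that of RV 77.6%. LA was still the lowest pool with an interval below all others, while the intervals of LV, RV and fixed cells then overlapped.

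Libraries of 1 chamber differed as well. In LV the Rpl3l share of the pair was 64.6% in library A, 74.3% in B, 89.8% in C and 73.7% in D, and in RV it was 83.2%, 80.6%, 71.1% and 74.2%. LV was thus below RV in A and above it in C. In LA it was 65.2%, 65.7%, 46.9% and 26.7%, the last from 15 UMIs, and in RA 92.5%, 82.8%, 81.0% and 66.7%. LA was below RA in each library, while the intervals of LA and RA in B and in D overlapped. Without cells under 2% cardiomyocyte markers LV had 77.0% in A, and LA had 82.1% in B (74.5% to 88.2%) and 62.5% in C (40.6% to 81.2%). LA was then close to RA in B (82.8%) and above LV (74.3%) and RV (80.6%) there. The intervals of LA and RA then overlapped in B, C and D, and lay apart in A alone.

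**Figure D4:**
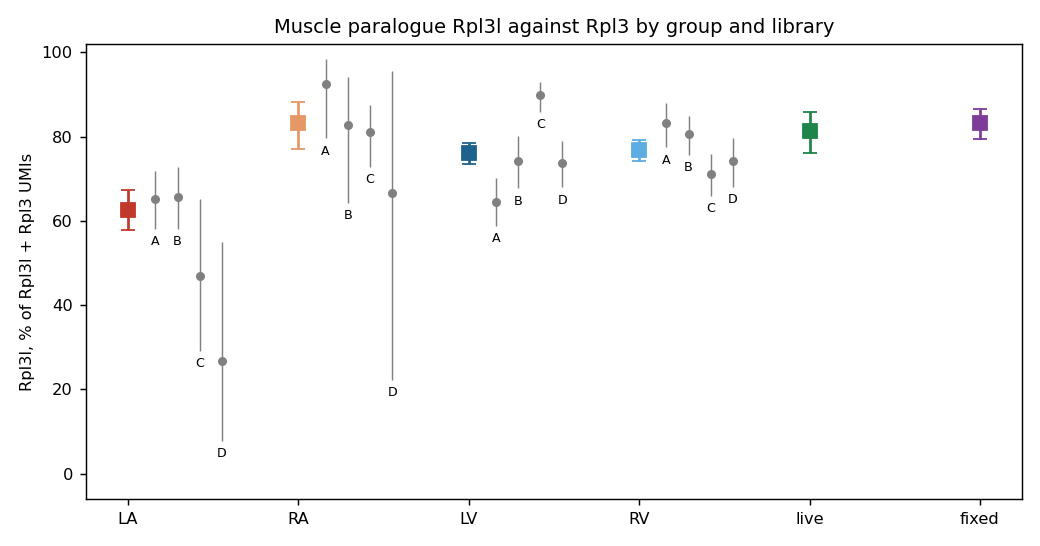
Rpl3l as a percent of Rpl3l plus Rpl3 UMIs: squares give each pool and grey points each library, with 95% exact intervals that cover counting error only. LA is lowest at 62.6% and fixed and RA cells are highest at 83.2%, while libraries of LV span 64.6% to 89.8%. UMIs on pseudogene rows named after Rpl3 are left out.

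Rpl3l also had the highest cell-to-cell variance relative to counting alone. Over 176 LV and RV cells with at least 5000 UMIs its variance was 9.18 times that of counting alone, the highest of 83 members, whose median was 3.35. Rplp0 ranked next at 7.58, and Rpl3 ranked 6th at 5.92. The median over 5836 other genes in the same UMI range was 4.05. The ratio grows with the count of a gene, so it does not rank members of unlike counts on 1 footing. Rpl3l had 1627 UMIs and Rplp0 4833, but Rpl3 had 505, and Rpl7l1, at a ratio of 3.79, had 186. Whether Rpl3l leads at equal counts was not tested. Without the highest cell the ratio of Rpl3l was 8.95. Without the 3 LV and RV cells under 2% cardiomyocyte markers it was 8.85, again the highest. Among the 90 LV and RV cells with at least 10 UMIs of the pair, 14 had more Rpl3 than Rpl3l and 16 had no Rpl3 UMI at all. The lowest cell, from LV, had 2.08% Rpl3l and gave 18.4% of the Rpl3 UMIs of LV, and it is the LV cell with 0.838% cardiomyocyte markers. The next lowest had 21.7%, with 7.30% markers, and among the 88 cells with at least 2% markers 12 had more Rpl3 than Rpl3l. Rpl3l was detected in 95.6% of LV cells and Rpl3 in 59.3%.

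The elongation factor pair Eef1a2, the muscle and neuron isoform, and Eef1a1 gives a second pair to set beside Rpl3l and Rpl3. Eef1a2 made 20.6% and 64.9% of the pair's UMIs in LA and RA, 47.5% and 60.8% in LV and RV, and 71.3% and 75.5% in live and fixed cells. These shares turn on a few cells. Without cells over 0.5% mesothelial transcripts the LA value was 55.4% (47.0% to 63.6%), with 66 Eef1a1 UMIs in place of 320. Without cells under 2% cardiomyocyte markers it was 55.8% in LA, 65.6% in LV and 67.3% in RV, and the intervals of LA and RA overlapped. Over 62 LV and RV cells with at least 5 UMIs of both pairs the 2 shares had a Pearson r of 0.379, and over the 20 cells with at least 10 it was 0.762. Among those with at least 2% cardiomyocyte markers r was 0.255 over 60 cells and 0.619 over 18. Over 37 live and fixed cells with at least 5 it was 0.0534. The cells share libraries, and these values are descriptions.

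The other paralogues were minor partners. Rpl22l1 made 6.92% to 24.3% of the Rpl22l1 and Rpl22 UMIs over the 6 pools, and Rpl7l1, a paralogue of Rpl7, 3.85% to 13.7%. Rpl36al, a retrocopy-derived paralogue of Rpl36a, made 28.9% to 36.2%, and Rps27l 22.0% (LA) to 30.7% (RA) of its pair with Rps27 in the chambers. Rps27l was nearer to Rps27 in RV (30.0%, 27.6% to 32.5%) than in LV (24.2%, 21.6% to 26.9%). Rpl36a-ps1 had 2.13 to 11.5 CPM and Rps19bp1 2.13 to 20.3 CPM.

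Copies with the same sequence set a limit on single members. The Rps27rt coding sequence is identical to that of Rps27 over all 255 bases, and the transcripts share a run of 341. The first 90 coding bases are shown for both, with no capitals since no base differs.
Rps27rt: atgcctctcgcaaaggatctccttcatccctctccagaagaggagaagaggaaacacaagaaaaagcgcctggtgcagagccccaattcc
Rps27: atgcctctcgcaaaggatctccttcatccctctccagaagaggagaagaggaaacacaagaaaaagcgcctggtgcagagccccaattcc

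Rps27rt nonetheless took 11.0% to 13.1% of the pair's UMIs in the 4 chambers and 49.1% and 50.8% in live and fixed cells. Rpl10-ps3 has the coding sequence of Rpl10 unchanged over 645 bases, and it took 14.4% to 26.4% in the chambers against 35.4% in live and 39.6% in fixed cells. Rpl9-ps6 matches Rpl9 at 99.8% of bases and took 7.99% to 12.4% in the chambers against 31.1% and 34.2%. Values for these 3 pairs are uncertain gene by gene, because reads from either copy can be placed on the other.

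Rows typed as pseudogenes showed the same contrast between the tables. Pseudogenes of ribosomal protein genes held 4.75 to 5.84 UMIs for each 100 member UMIs in the chambers, but 50.2 in live and 49.6 in fixed cells. Counting those named after a member, such rows took over 50% of the gene and pseudogene UMIs of 18 members in the live and fixed table and of none in the multichamber table. In live cells such rows held 90.8% of the UMIs of Rpl23a and its named pseudogenes, 81.0% for Rpl31, 80.4% for Rpl15 and 71.0% for Rpsa, against 23.3%, 19.2%, 3.81% and 15.8% in LV. Rplp0 has no such row. How each table treated reads that fit several places is not given in the sources used here. In fixed cells the shares were 95.2%, 81.3%, 76.9% and 71.2%. Adding the named pseudogene rows to their members left the fixed to live log2 ratio of Rps4x at 1.15 and that of Rps7 at 0.57.

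**Figure D5:**
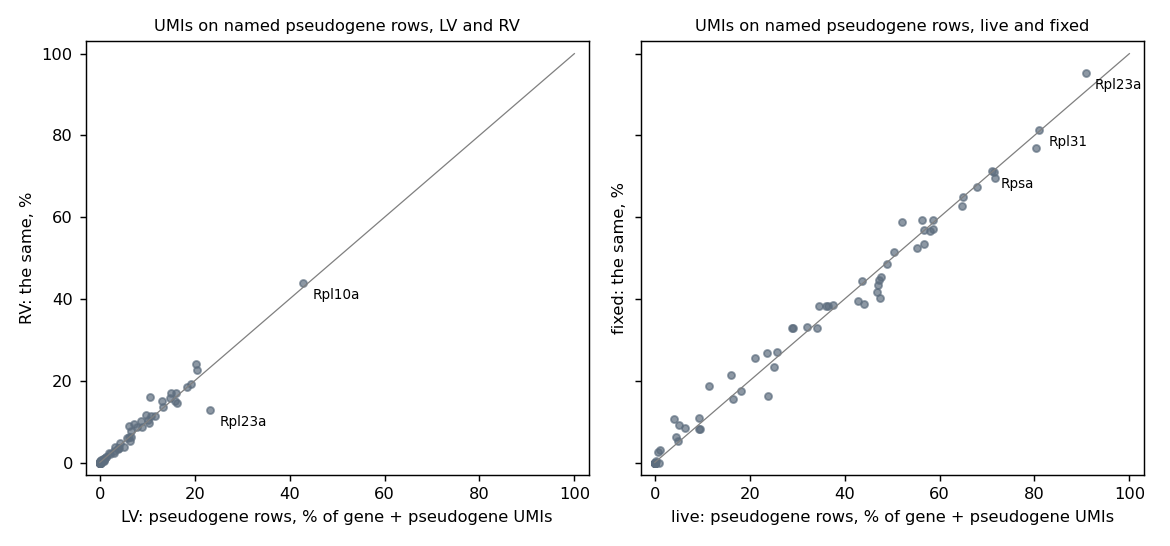
For each ribosomal protein gene, the percent of its UMIs that lie on pseudogene rows named after it, LV against RV (left) and live against fixed (right), with a line at equality. In LV and RV all genes lie under 50%, the highest being Rpl10a at 42.9% and 43.9%, while live and fixed values reach 90.8% and 95.2% for Rpl23a and follow the line.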

How the data were processed

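Adult mouse cardiomyocytes were profiled by SCRB-seq, a plate method that reads 3′ ends with molecular tags. The deposited tables hold whole UMI counts and read counts per gene and cell, unnormalized. Reads were aligned with STAR 2.5.4b and counted with featureCounts on GRCm38, per the submitters' processing notes. How reads that fit several places were treated, and whether counting used strand, is not given in the sources used here. Chamber, library and live or fixed labels came from the authors' deposited cell tables, and 45 barcode columns without a label were not used.

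Kept cells (at least 1000 gene UMIs and 500 genes) were summed per label, with mitochondrially encoded genes outside the total. Ratios are log2 of (CPM + 5) in the first pool over that in the second, for genes with at least 30 UMIs over both pools, and a call is a 1.5-fold difference on that scale. Linear ratios of CPM carry exact conditional intervals, at 95%. No p-value was computed, since each label is 1 pool. No doublet caller was run. The 4 comparisons were repeated with other totals and scalings (edgeR 4.0.16 for TMM), each cell weighted alike, reads in place of UMIs, other pseudocounts, gene minimums and cell filters, and each library left out. The computations were tested on simulated data. Members, gene lists and comparisons were chosen with earlier results of these data known, and leaving out mesothelial-rich cells, cells under 2% cardiomyocyte markers, top cells or cells under 20000 UMIs, the library block, and the background of genes matched on length, were added after seeing the data. Genes named with values are paralogues and -ps genes, Rplp0, Rplp1, Rplp2 and Rpsa, the 10 members with most UMIs in LV and RV, and the 5 highest and 5 lowest ratios per comparison among members with at least 100 UMIs; others were named after their values were seen, and a few that the rule gives are not reported here. Scripts ran under Python 3.11.15 (scipy 1.17.1, biopython 1.88, pandas 2.3.3) and R 4.3.3.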

Additional observations from a re-analysis of the deposited data

Results flagged for a closer look

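Labelled cells below the filter of 1000 UMIs and 500 genes enter no comparison, and ribosomal protein UMIs were detected in them above the limit that 3 counts allow. Their share of nuclear-encoded UMIs was 1.70% in 15 LA cells (1.47% to 1.96%), 1.68% in 25 RA cells, 2.81% in 5 LV cells, 1.86% in 6 RV cells and 1.34% in 5 live cells. The LV value lay close to that of the kept LV cells, while the LA, RA and RV values were below those of their kept cells.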

How the results depend on the processing

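The libraries A to D each hold cells of all 4 chambers. With library as a block, taken as the mean of the 4 within-library log2 ratios of each gene, the medians were -0.059 (atrial against ventricular, 2 members lower), 0.34 (LA against RA, 20 higher, 2 lower) and 0.050 (LV against RV). No paired analysis was possible because no library letter links live to fixed cells. Of the results on single members, 3184 values under alternatives stayed within their counting interval, 397 moved outside it and 2 were labelled reversed. Both were Rpl22l1 in LA against RA, from -0.83 to 1.55 with equal weight per cell and 0.092 with the library block. Other members changed sign without that label. With equal weight Rpl3 did in atrial against ventricular and Rps18 in fixed against live cells. Without each library in turn, LA against RA ranged from -0.59 to 0.79 for Rpl24 and from -0.75 to 0.25 for Rpl36al. The cause of these shifts was not tested. Depth limits the RA pool most.

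Median log2 ratios in the order all UMIs, TMM and median-of-ratios scaling were -0.0056, 0.13 and 0.16 in fixed against live, and 0.10, 0.0036 and -0.00014 in LV against RV. In atrial against ventricular cells all UMIs gave 0.20, TMM 0.12, equal weight -0.27, non-myocyte-rich cells left out 0.19, mesothelial-rich cells left out 0.0089, top cells left out -0.080 and cells with at least 20000 UMIs 0.14. In LA against RA median-of-ratios scaling gave 0.25, top cells left out 0.47, TMM 0.044, mesothelial-rich cells left out 0.077, and cells with at least 5000 UMIs or cells under 2% cardiomyocyte markers left out 0.083 each. Without each library in turn the medians were 0.10 to 0.24 (LA against RA), 0.012 to 0.097 (LV against RV) and 0.030 to 0.086 (atrial against ventricular).

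Members at least 1.5-fold higher in LA than in RA numbered 5 with TMM, 20 with equal weight, 15 with reads, 5 without mesothelial-rich cells or cells under 2% cardiomyocyte markers and 27 without top cells, and 6 to 15 without each library. Those lower numbered 2 with TMM, equal weight, a minimum of 10 UMIs, non-myocyte-rich, mesothelial-rich or marker-poor cells left out or cells with at least 20000 UMIs, 5 with reads, and 0 with a pseudocount of 20, a minimum of 100 UMIs or top cells left out, and 0 to 3 without each library. In LV against RV 1 was higher with equal weight, 2 were higher and 1 lower with reads, and 0 to 2 were higher and 0 to 2 lower without each library. In atrial against ventricular cells 3 were higher with all UMIs, non-myocyte-rich cells left out or cells with at least 20000 UMIs, 1 with TMM, equal weight or cells with at least 5000 UMIs, 4 with reads, and 0 to 2 without each library. Those lower numbered 16 with equal weight, 0 with all UMIs, TMM, reads, a pseudocount of 20, non-myocyte-rich, mesothelial-rich or marker-poor cells left out, pseudogene rows added or cells with at least 20000 UMIs, and 0 to 1 without each library. In fixed against live cells 3, 9 and 10 were higher and 10, 6 and 4 lower with all UMIs, TMM and median-of-ratios scaling. Equal weight gave 3 higher, reads and top cells left out 4 each, and a pseudocount of 1, no cell filter and cells with at least 20000 UMIs 2 each.

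The Rpl3l share of the pair was 57.0% in LA, 89.9% in RA and 78.6% in LV with reads, 69.5% in LA without mesothelial-rich or marker-poor cells, 79.8% in LV without the latter, and 87.9% in fixed cells with equal weight. Without each library it was 60.3% to 64.0% in LA, 80.8% to 86.7% in RA, 70.4% to 80.4% in LV and 75.2% to 79.4% in RV.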
